A study of Homo sapiens with 2 samples.

Results

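AP-1 is a transcription factor assembled from pairs of basic leucine zipper (bZIP) proteins of the JUN, FOS, ATF and related families. The 10 genes described here encode the FOS-family proteins FOS, FOSB, FOSL1 and FOSL2, the JUN-family proteins JUN, JUNB and JUND, the related bZIP proteins BATF3 and JDP2, and ATF2. They were taken by gene symbol from a table of 26255 genes, and all 10 were found, each above 0 in both libraries. RNA was sequenced from OVSAHO, an established human ovarian cancer cell line, in 1 culture per group. In the perturbed culture, SMARCA2 was labelled as stable and SMARCA4 as knocked down, and the submitters' design text calls SMARCA2 raised and SMARCA4 lowered. The control culture was labelled WT and is called Ctrl-siNC in the design text. SMARCA2 and SMARCA4 are the alternative ATPases that drive the SWI/SNF chromatin remodelling complex. Both cultures had been kept for 2 days in 25 µM carboplatin, a platinum drug that damages DNA, so no culture without the drug is compared here. How SMARCA2 was raised, and what the numbers in the sample titles stand for (a clone, for example), is not given in the sources used here.

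JUN proteins can pair with each other or with FOS proteins, whereas FOS proteins need a JUN partner to bind DNA, at the site TGACTCA and its close relatives. Growth factors and cell stress raise AP-1 through MAP kinases, which switch on transcription of FOS and phosphorylate JUN and ATF2. In mouse fibroblasts, AP-1 is known to recruit the SWI/SNF complex to enhancers.

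Levels are in FPKM, that is, sequenced fragments scaled to transcript length and to the number of fragments mapped, so that levels of different genes can be compared. SMARCA2 was at 2.60 FPKM in perturbed cells and 0.205 FPKM in control cells, and SMARCA4 at 4.49 FPKM in perturbed and 27.9 FPKM in control cells, the directions the design text gives. About 8850000 fragments lay behind the perturbed table and 9050000 behind the control, estimated from the smallest values. Markers of serous ovarian cancer were present in both libraries, among them the lineage factor PAX8 (42.1 FPKM in perturbed and 21.9 FPKM in control cells) and the keratin KRT8 (462 FPKM in perturbed and 489 FPKM in control cells). Of 11 such markers at 1 FPKM or above, WT1 was higher (5.52 FPKM in perturbed and 1.53 FPKM in control cells) and KRT7 lower (119 FPKM in perturbed and 540 FPKM in control cells). MUC16, which encodes a serous cancer antigen, was listed at 0 in perturbed cells and was at 0.0608 FPKM in control cells. None of 12 markers of immune, endothelial and fibroblast cells reached 1 FPKM, and their summed level was 0.765 FPKM in perturbed cells and 0.753 FPKM in control cells. With 1 library per group there is no error between cultures and no p-value. The intervals below are 95% exact (Clopper-Pearson for folds, Poisson for levels) and cover counting error only, not differences between cultures. They treat each fragment as independent. PCR copies are not independent molecules, so the intervals may be too narrow even for counting error. In bulk RNA, fewer cells that express a gene and less RNA per cell cannot be told apart.

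Calls followed a rule of size for genes that reached 1 FPKM in either library: a log2 ratio of FPKM + 1 (perturbed over control) of 1 or above counted as higher, and of -1 or below as lower. Of 10 AP-1 genes, 9 were at this level. FOS and FOSL1 were lower, JUND was higher, and 6 lay inside the rule. Across all 11785 genes at this level, 7.61% were lower and 7.85% higher, 15.5% in all. The 9 genes had a median log2 ratio of -0.45, and 8 of them were below 0. BATF3, among these 8, reached 1 FPKM in the control library alone, so the filter fixed its direction. All 11785 genes had a median of -0.06, and 53.5% were below 0. Over all 10 AP-1 genes the median was -0.37, with 8 below 0 and 2 above, FOSB, which the filter left out, among the latter. Folds in the text are plain ratios of FPKM, whereas log2 ratios include the added 1 FPKM, which makes the change of a low gene look smaller.

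**Figure D1:**
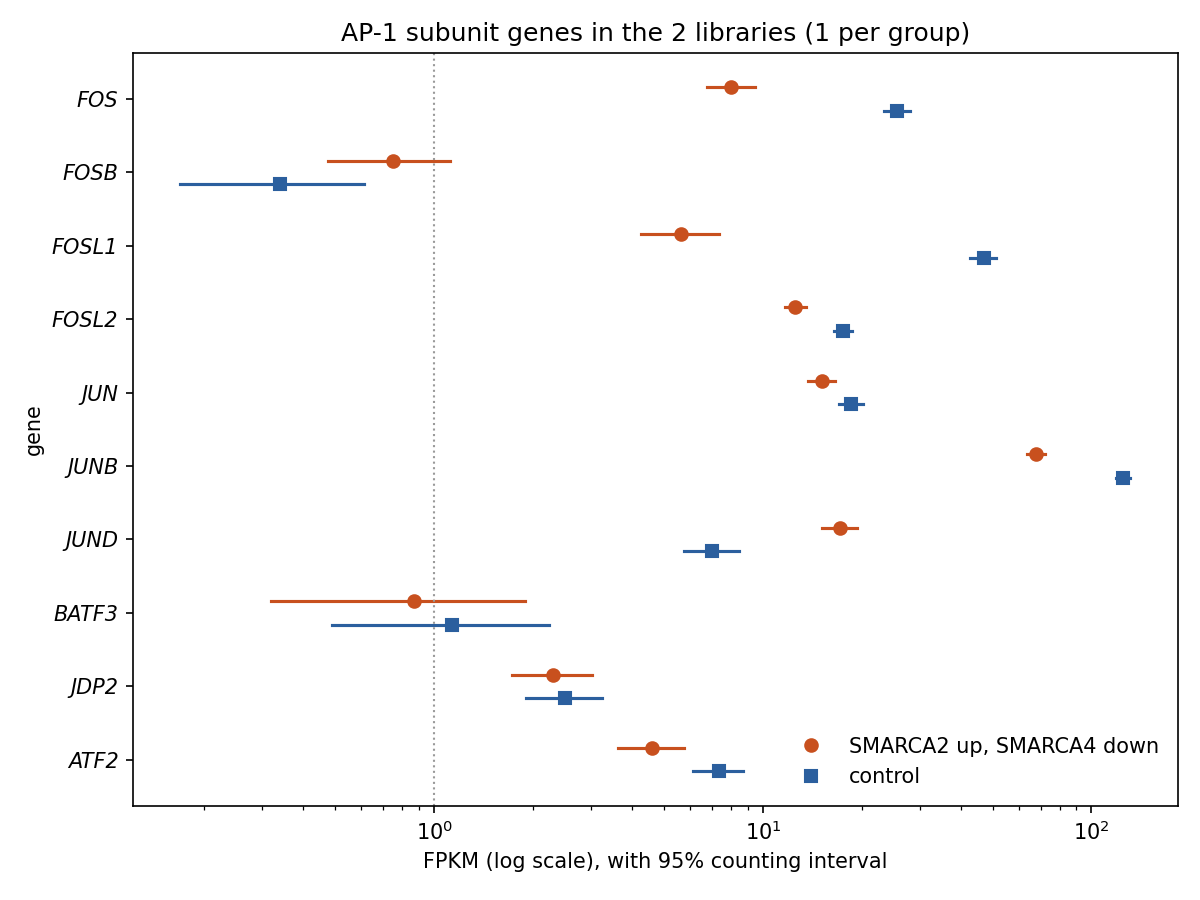
Level of each AP-1 gene in FPKM on a log axis, with the perturbed library as circles above the control library as squares; bars are 95% Poisson counting intervals and the dotted line marks 1 FPKM. The bars of FOSB, BATF3 and JDP2 overlap between the libraries, while those of the other AP-1 genes stand apart.

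The FOS family held the largest change. FOSL1 encodes FRA-1, a FOS protein that lacks the strong activation domain of FOS and is known in carcinoma cells for its part in invasion. FOSL1 was at 5.65 FPKM in perturbed cells and 46.9 FPKM in control cells, 8.31-fold lower (6.26 to 11.1), with a log2 ratio of -2.85. Among the 11785 genes it ranked 36 from the lowest ratio. About 55.7 fragments lay behind the perturbed value and 473 behind the control value, so the gap was far wider than the counting error of independent fragments. By level it was the sixth of the AP-1 genes in perturbed cells and the second in control cells.

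FOS, an immediate-early gene that is switched on within minutes of a stimulus and soon shut off again, was also lower. Its level was 8.02 FPKM in perturbed cells and 25.6 FPKM in control cells, 3.20-fold lower (2.64 to 3.89), with a log2 ratio of -1.56 that ranked 199 from the lowest. FOSL2, which encodes FRA-2 and has a more lasting expression than FOS, was at 12.6 FPKM in perturbed cells and 17.6 FPKM in control cells. That is 1.40-fold lower (1.27 to 1.54), a log2 ratio of -0.45, inside the rule of size. FOSB, another immediate-early gene, was scarce in both libraries, at 0.749 FPKM in perturbed cells and 0.340 FPKM in control cells, from about 23.3 and 10.8 fragments. It stayed under 1 FPKM and so under the rule, and its 2.203-fold ratio had an interval that began at 1 and ended at 4.86. It was the only FOS-family gene whose level was the higher one in the perturbed library.

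Summed, the FOS family was at 27.0 FPKM in perturbed cells and 90.5 FPKM in control cells, 3.35-fold lower. The make-up of the family differed too. FOSL1 gave 20.9% of the sum in the perturbed library and 51.9% in the control, whereas FOSL2 gave 46.6% in the perturbed library and 19.4% in the control. The share of FOS was 29.7% in the perturbed library and 28.3% in the control, and that of FOSB 2.77% in the perturbed library and 0.376% in the control. FOSL2 was thus the most abundant FOS-family gene of the perturbed library, and FOSL1 that of the control. Without FOSL1 the sum of the other FOS genes was still at 0.490 times the control level.

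FOS transcripts are known to be short-lived because of AU-rich elements in the 3′ untranslated region. The 9-base AU-rich core TTATTTATT, searched on the transcript strand in the longest RefSeq-matched GENCODE 29 transcript, occurred once in FOS and once in FOSL2 and in none of the other 8. It occurred in 7.87% of 18614 genes with such a region. Both sites are shown, with the core in capitals, because a gene that was lower by the rule and a gene inside it carry the same core. The core begins at base 646 of this region in FOS, on chromosome 14, and at base 3917 in FOSL2, on chromosome 2 (both in transcript orientation, GRCh38).
FOS: tgtttttaatTTATTTATTaagatggatt
FOSL2: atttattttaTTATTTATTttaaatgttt

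The shorter ATTTA occurred 5 times in FOS, 9 times in FOSL2, 3 times in FOSB and 1 time in FOSL1. In the other AP-1 genes it occurred 8 times in ATF2, 3 in JUN, 3 in JDP2, 2 in JUNB, 1 in JUND and 1 in BATF3. It was present in 65.9% of the 18614 genes. The region was 806 bases long in FOS, 4864 in FOSL2, 2166 in FOSB and 666 in FOSL1, against a median of 988 over all these genes. FOSL1, with the lowest ratio, lacked the core. RNA decay was not measured, and whether these elements bear on the ratios was not tested.

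**Figure D2:**
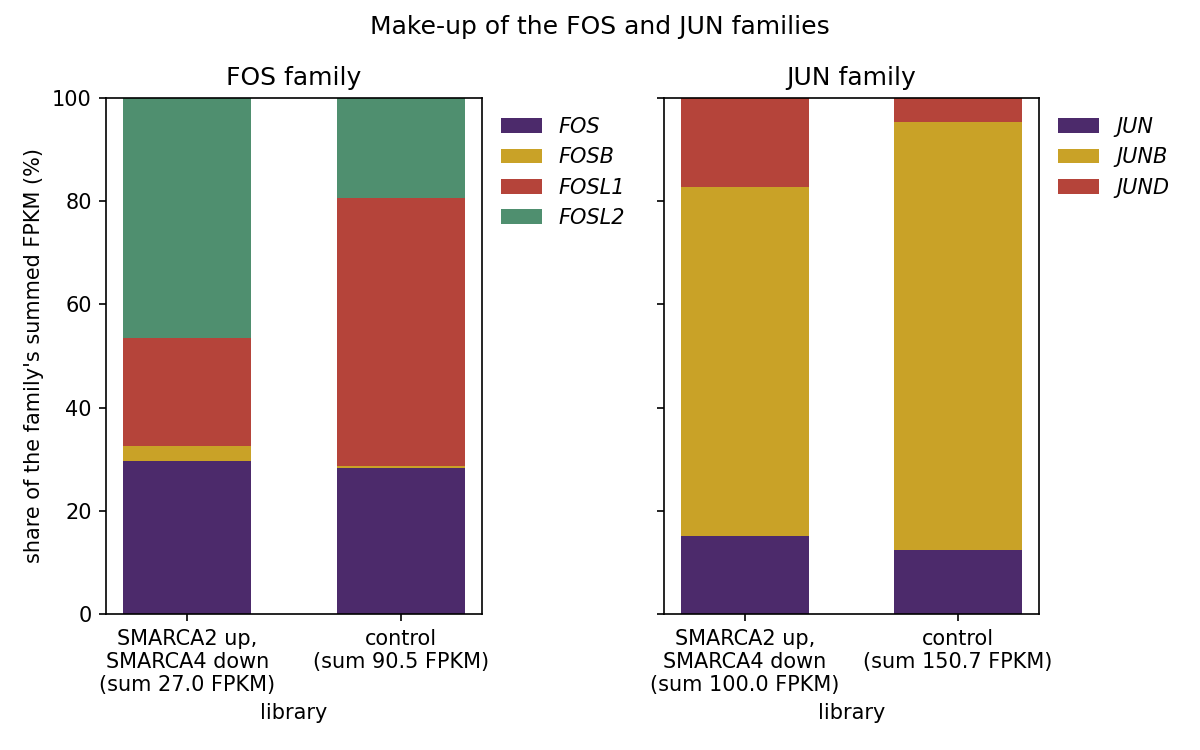
Share of each gene in the summed FPKM of the FOS family (left) and the JUN family (right), in percent, with the perturbed library left of the control in each panel and the sums under the bars. FOSL1 takes 20.9% of the FOS sum in the perturbed library against 51.9% in the control, and JUND takes 17.2% of the JUN sum in the perturbed library against 4.66% in the control.

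The JUN genes differed in direction. JUND, the JUN protein that is usually made without a stimulus and is known to slow growth in mouse fibroblasts, was at 17.2 FPKM in perturbed cells and 7.02 FPKM in control cells. That is 2.45-fold higher (1.94 to 3.09), a log2 ratio of 1.18, which ranked 586 from the highest. The JUND transcript is rich in G and C (69.7%), and the 422 genes of 65% to 75% GC had a median log2 ratio of 0.27, above the -0.06 of all genes. After a fit of the ratio on level, GC content and transcript length was subtracted, JUND was at 0.89 and with 5 FPKM added it was at 0.88, both inside the rule of size.

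JUNB, an immediate-early gene that can hold JUN activity in check, was the most abundant AP-1 gene of each library. It was at 67.7 FPKM in perturbed cells and 125 FPKM in control cells, 1.85-fold lower (1.71 to 2.00). Its log2 ratio of -0.88 lay just inside the rule. The 1466 genes with a mean level of 50 to 200 FPKM had a median of -0.28. Exons of HOOK2 overlap JUNB on the opposite strand, and the library kit does not mark strand. HOOK2 was at 12.9 FPKM in perturbed cells and 13.1 FPKM in control cells, and its part in the JUNB value was not tested. JUN, the partner that gives AP-1 much of its activity and regulates its own promoter, was at 15.1 FPKM in perturbed cells and 18.6 FPKM in control cells, 1.23-fold lower (1.08 to 1.40), with a log2 ratio of -0.28.

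The JUN family summed to 100 FPKM in perturbed cells and 150.7 FPKM in control cells, 1.51-fold lower. JUNB gave 67.7% of the sum in the perturbed library and 83.0% in the control, JUND 17.2% in the perturbed library and 4.66% in the control, and JUN 15.1% in the perturbed library and 12.3% in the control. This sum followed JUNB: without it, JUN and JUND together were at 1.26 times the control level. The sum of the JUN family was 3.71 times that of the FOS family in the perturbed library and 1.67 times in the control.

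The promoters of the 3 JUN genes, each a gene of 1 exon, and of FOS are shown because these genes had unlike ratios. Each line gives the 250 bases before the annotated start, 5′ to 3′ on the gene's strand, from RefSeq on GRCh38.p14 (the submitters' processing notes list hg19 for the expression tables). Capitals mark matches to TGACTCA and TGACGTCA, the sites AP-1 and ATF or CREB dimers are known to bind, to the related TGACATCA, and to the GC box GGGCGG. Each was searched on both strands, and these motifs do not overlap one another in the sequences shown. The JUN sequence is chr1:58784048-58784297, minus strand; JUNB is chr19:12791236-12791485, plus strand; JUND is chr19:18281623-18281872, minus strand; FOS is chr14:75278578-75278827, plus strand.
JUN: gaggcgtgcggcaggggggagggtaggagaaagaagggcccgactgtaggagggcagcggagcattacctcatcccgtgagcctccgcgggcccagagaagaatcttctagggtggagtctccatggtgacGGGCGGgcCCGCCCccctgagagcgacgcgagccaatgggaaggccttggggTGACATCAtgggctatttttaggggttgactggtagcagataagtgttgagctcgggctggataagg
JUNB: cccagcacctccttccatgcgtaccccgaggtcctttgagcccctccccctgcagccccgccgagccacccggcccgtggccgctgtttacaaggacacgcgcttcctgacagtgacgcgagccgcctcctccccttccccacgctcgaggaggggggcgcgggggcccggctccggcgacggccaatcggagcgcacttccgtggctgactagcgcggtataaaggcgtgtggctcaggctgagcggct
JUND: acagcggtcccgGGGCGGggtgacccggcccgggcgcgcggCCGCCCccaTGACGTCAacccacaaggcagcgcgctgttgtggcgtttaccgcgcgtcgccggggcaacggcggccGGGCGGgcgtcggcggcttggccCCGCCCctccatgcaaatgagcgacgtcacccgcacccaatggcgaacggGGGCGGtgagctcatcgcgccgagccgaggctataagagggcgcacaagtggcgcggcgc
FOS: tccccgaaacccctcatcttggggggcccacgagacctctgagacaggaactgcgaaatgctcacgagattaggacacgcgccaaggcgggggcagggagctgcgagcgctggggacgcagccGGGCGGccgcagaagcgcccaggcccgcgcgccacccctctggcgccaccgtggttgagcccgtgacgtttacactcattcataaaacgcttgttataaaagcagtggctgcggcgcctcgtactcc

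In the window from 250 bases before to 50 bases after the start, TGACATCA lay 67 bases before the start of JUN and TGACGTCA 200 bases before the start of JUND. Of 35116 RefSeq promoter windows of this length, 2.61% held TGACATCA, 1.85% TGACGTCA, 4.95% TGACTCA and 45.0% GGGCGG. JUND had 6 matches to GGGCGG in its window, JUN 2, FOS 1 and JUNB none. TGACTCA occurred in the window of FOSL2 alone among the 7 AP-1 genes with an entry, 4 bases after its start. The CArG box, the serum response factor site, was in none of the 7 and in 1.29% of all windows. Bases outside the window were not searched, so a CArG box farther upstream of any of these genes, FOS among them, would be missed. FOSL1, BATF3 and ATF2 had no entry and were not searched. These are matches of letters and were not shown to be bound in these cells.

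The remaining members differed less. ATF2, a stress-responsive partner of JUN that binds ATF and CREB sites, was at 4.59 FPKM in perturbed cells and 7.33 FPKM in control cells. It was 1.60-fold lower (1.20 to 2.15), a log2 ratio of -0.58, inside the rule. JDP2, a JUN partner that represses AP-1 activity, was at 2.30 FPKM in perturbed cells and 2.50 FPKM in control cells, with a fold of 0.921 (0.628 to 1.38). Its log2 ratio of -0.08 turned to 0.02 when the tables were scaled to a common sum or centred. In GENCODE 29, exons of antisense genes on the opposite strand overlap JDP2 (AF111167.2) and ATF2 (AC096649.1), and the small RNA gene RF02271 overlaps an ATF2 exon on the same strand; reads of these could not be told apart from those of the AP-1 genes. BATF3, a small bZIP protein without an activation domain, known for its role in dendritic cells, was at 0.869 FPKM in perturbed cells and 1.13 FPKM in control cells, from about 6 and 8 fragments. With so few fragments the interval of its fold, 0.219 to 2.52, allowed a large change in either direction. In all, the counting interval of the fold left out 1 for 8 of the 10 genes, all but JDP2 and BATF3, although the bound of FOSB lay at 1. This count holds for FPKM as deposited, and the intervals were not computed under other scalings. It was not made over all genes, so it cannot show whether the AP-1 genes stand apart. Where fragments are many, the interval of a small fold can leave out 1. That of KRT8, inside the rule of size, ran from 0.915 to 0.979. With a common sum the log2 ratio of JUN moved from -0.28 to -0.15. The interval of JUN, which ended at 0.922 as deposited, may then hold 1, so the count may be smaller.

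The order of the levels was therefore not the same in the libraries. In the perturbed library it ran JUNB, JUND, JUN, FOSL2, FOS, FOSL1, ATF2, JDP2, BATF3 and FOSB. There the counting intervals overlapped between JUND and JUN, between FOS and FOSL1, between FOSL1 and ATF2, and between neighbours from JDP2 down. In the control it ran JUNB, FOSL1, FOS, JUN, FOSL2, ATF2, JUND, JDP2, BATF3 and FOSB. Here JUN and FOSL2 overlapped, as did ATF2 and JUND, and again the neighbours from JDP2 down. JUNB lay above 89.3% of the genes detected in the perturbed library and 92.0% of those in the control, and FOSL1 above 56.6% in the perturbed library and 84.1% in the control.

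**Figure D3:**
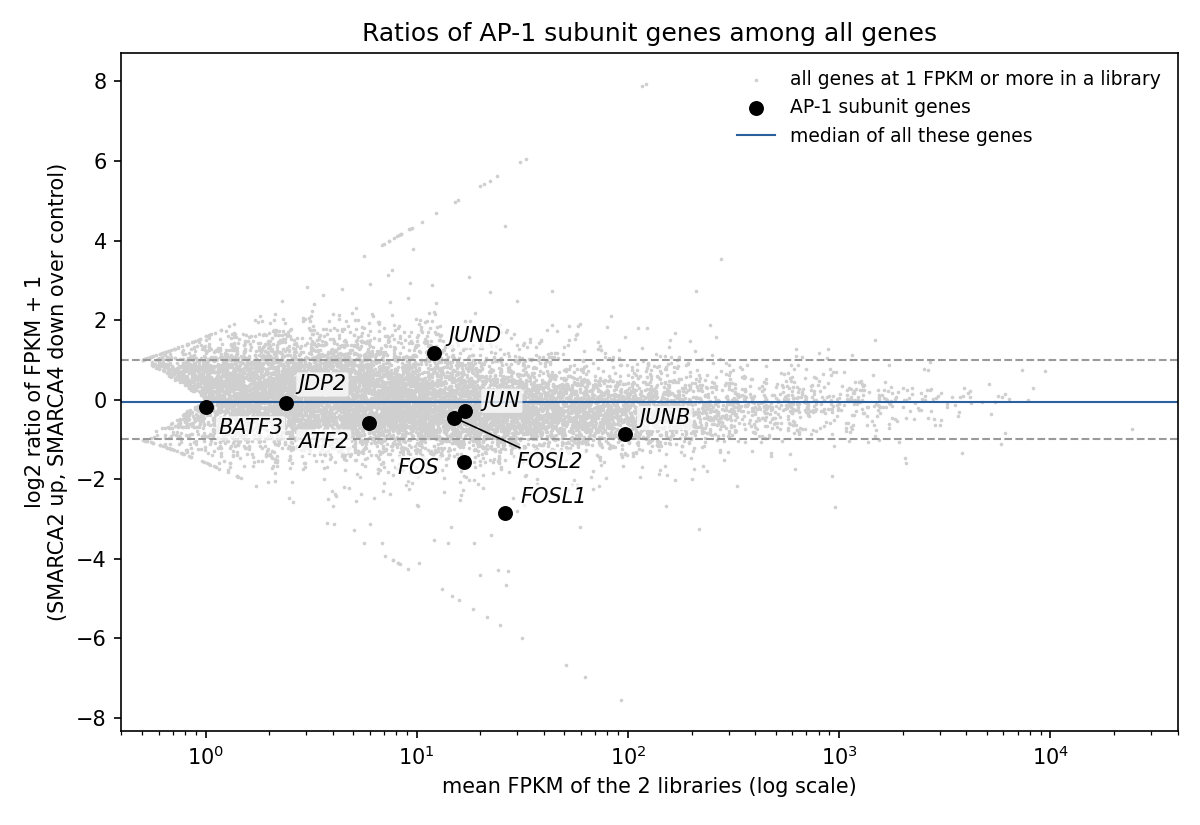
Log2 ratio of FPKM + 1, perturbed over control, against the mean FPKM of the libraries on a log axis, with 9 AP-1 genes in black and the 11785 genes at 1 FPKM or more in a library in grey; dashed lines mark the rule of size and the blue line the median of -0.06. FOSL1 at -2.85 and FOS at -1.56 lie below the lower dashed line and JUND at 1.18 above the upper one.

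Other bZIP proteins, many of them partners of JUN or FOS, had 3 of 18 genes lower and none higher, with a median log2 ratio of 0.05. For this list and those that follow, the shares over all 11785 genes are 7.61% lower and 7.85% higher, with a median of -0.06. BATF2 was at 0.580 FPKM in perturbed cells and 3.70 FPKM in control cells, and lay inside the rule with 5 FPKM added. It reached 1 FPKM in the control library alone. MAFF, a small MAF protein, was 3.13-fold lower, at 10.2 FPKM in perturbed against 31.8 FPKM in control cells. ATF3, a stress-induced JUN partner, was 2.41-fold lower (2.02 to 2.86), at 12.4 FPKM in perturbed against 29.8 FPKM in control cells, and with trends on length, GC and level removed its log2 ratio of -0.96 lay inside the rule.

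Of 15 kinases and factors that act upstream of AP-1, 1 was higher and none lower, with a median of 0.33. The higher one was MAP2K2, the ERK-activating kinase MEK2, at 50.8 FPKM in perturbed cells and 17.95 FPKM in control cells, 2.83-fold higher (2.45 to 3.29). Serum response factor, SRF, which drives FOS, was at 9.48 FPKM in perturbed and 5.60 FPKM in control cells. Its partner ELK1 was at 13.7 FPKM in perturbed and 27.9 FPKM in control cells, 2.03-fold lower (1.75 to 2.38). Both lay inside the rule, ELK1 only just, at a log2 ratio of -0.97. The JNK kinase genes MAPK8 and MAPK9 were at 5.38 and 9.88 FPKM in perturbed cells, against 3.75 and 7.27 FPKM in control cells.

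The list of negative regulators had 3 of 15 genes higher and 1 lower, with a median of 0.24. FBXW7, which marks JUN protein for destruction, was at 2.41 FPKM in perturbed cells and 0.131 FPKM in control cells, 18.4-fold higher (7.08 to 71.2) on about 4.11 control fragments. IRF2BP2, a transcriptional corepressor, was 2.27-fold higher (2.00 to 2.58) and NACA 2.24-fold higher (2.16 to 2.32), at 1115 FPKM in perturbed against 498 FPKM in control cells. With 5 FPKM added, FBXW7 and IRF2BP2 lay inside the rule. FBXW7 reached 1 FPKM in the perturbed library alone. A filter of 5 FPKM in 1 library or of 1 FPKM in both libraries left it out. NACA stands in the list although in the mouse it is known as a coactivator of JUN. TRIB1, an adaptor of the ubiquitin ligase COP1, was lower, at 5.06 FPKM in perturbed against 11.5 FPKM in control cells. Its log2 ratio was -1.05, and under each of 3 other scalings, with 5 FPKM added and with trends removed it lay inside the rule. COP1 itself, listed under its older symbol RFWD2, was at 9.65 FPKM in perturbed cells and 8.03 FPKM in control cells.

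Of 26 textbook AP-1 target genes, 13 reached 1 FPKM in a library, and 3 of these were lower and 1 higher, with a median of -0.25. The cytokine genes CXCL8 and IL6 were at 0.225 and 0.460 FPKM in perturbed cells, against 4.04 and 3.26 FPKM in control cells. Both reached 1 FPKM in the control library alone. The perturbed values rested on about 3 and 3.47 fragments, and the folds were 17.9-fold lower (5.83 to 89.7) for CXCL8 and 7.10-fold lower (2.49 to 42.2) for IL6. HBEGF, an EGF-like growth factor, was 2.13-fold lower (1.93 to 2.35), at 31.2 FPKM in perturbed against 66.6 FPKM in control cells. With 5 FPKM added, these 3 lay inside the rule, and HBEGF, with a log2 ratio of -1.07, did so also under each of 3 other scalings and with trends removed. CCL2, a monocyte chemokine, went the other way, at 507 FPKM in perturbed against 42.5 FPKM in control cells. That is 11.9-fold higher (10.4 to 13.8), and it stayed higher under every alternative run, a rule of 4-fold included. The collagenase genes MMP1 and MMP13 were under 1 FPKM in each library, and MMP3, AREG, IVL and PTGS2 were listed at 0 in both.

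Other immediate-early genes, which share the rapid induction of FOS and JUNB, had 5 of 15 lower and none higher, with a median of -0.43. Over all genes, 7.61% were lower and 7.85% higher. ATF3 is in this list as well as among the bZIP genes, and DUSP1 and ZFP36 are in it and among the negative regulators. The nuclear receptors NR4A1 and NR4A2 were both 2.88-fold lower, at 20.6 and 2.88 FPKM in perturbed cells, against 59.4 and 8.29 FPKM in control cells. With 5 FPKM added, NR4A2 lay inside the rule. Their relative NR4A3 went the other way, at 1.66 FPKM in perturbed and 0.720 FPKM in control cells. It was 2.31-fold higher (1.42 to 4.03), but its log2 ratio of 0.63, with 1 FPKM added, lay inside the rule. KLF10 was 2.17-fold lower and BTG2, an antiproliferative gene named after its value was seen, 2.18-fold lower. EGR1, which is often induced together with FOS, was at 4.65 FPKM in perturbed cells and 2.15 FPKM in control cells. That is 2.17-fold higher (1.57 to 3.03), but its log2 ratio of 0.85, with 1 FPKM added, lay inside the rule. IER2 was at 206 FPKM in perturbed and 323 FPKM in control cells. The lower genes of this list numbered 3 under each of 3 other scalings, 2 with 5 FPKM added and 2 with trends removed, and KLF10 and BTG2 lay inside the rule under all of these.

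**Figure D4:**
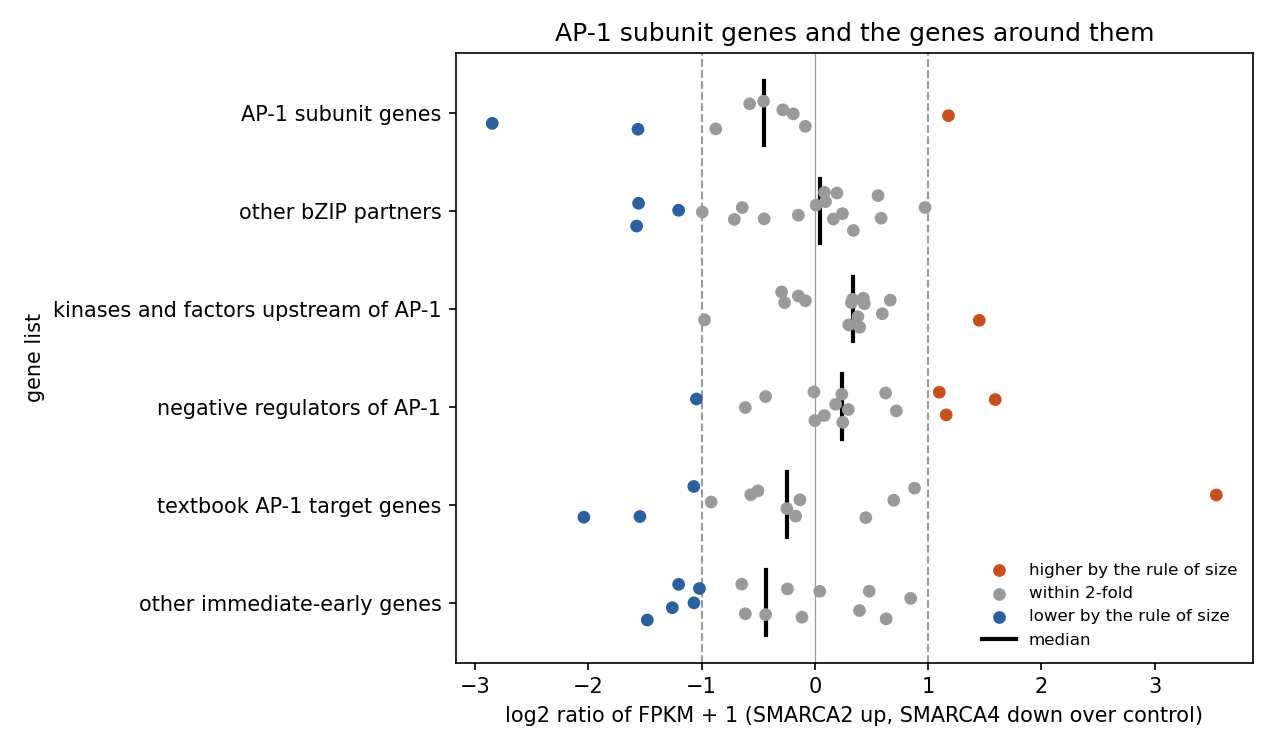
Log2 ratio of FPKM + 1, perturbed over control, for genes at 1 FPKM or more in a library, by list; each point is 1 gene, black bars are medians and dashed lines mark the rule of size. The AP-1 genes have a median of -0.45, the other immediate-early genes -0.43 and the upstream kinases and factors 0.33.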

How the data were processed

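Total RNA was extracted with miRNeasy Micro columns, turned into cDNA with SMART-Seq HT and made into Nextera XT libraries, per the labels' protocols. The authors deposited 1 table of FPKM per library, per the file headers. Cuffdiff 2.2.1, TopHat2 2.1.1, SAMtools 0.1.18, Bowtie2 2.2.8 and hg19 are listed, per the submitters' processing notes. No source used here gives the annotation or any scaling between libraries.

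Groups came from the genotype labels. No p-value was computed, since each group had 1 library. Depth came from the steps of low values: for genes with 1 RefSeq-matched GENCODE 29 transcript (300 bases or longer), a depth and a shortening of the length (200 bases) were searched that put the most values in a window 2% wide at 1 fragment. Of values from 0.5 to 5.5 fragments, 62.3% in the perturbed library and 62.4% in the control were then within 0.05 of a whole number. Fragments of a gene used its median matched transcript length. Python 3.11.15, numpy 2.4.6, pandas 2.3.3 and scipy 1.17.1 were used.

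The AP-1 genes and all lists were chosen with earlier results of these data known. All AP-1 genes are named. Of each list, up to 4 genes per direction past the rule of size are named by rule. Others (SRF, ELK1, MAPK8, MAPK9, COP1, EGR1, IER2, NR4A3, BTG2, the undetected targets and the marker genes) were named after their values were seen. Alternatives covered the pseudocount, scaling, filter, rule of size, transcript length and trends.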

Additional observations from a re-analysis of the deposited data

How the results depend on the processing

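FOS and FOSL1 were lower under every pseudocount, scaling and filter run and with trends removed (FOS from -1.66 to -1.23 and FOSL1 from -3.03 to -2.29, log2), and FOSL1 also by a rule of 4-fold. The median log2 ratio of the AP-1 genes ranged from -0.58 to -0.32. JUND was not past the rule with a pseudocount of 5 FPKM, with a rule of 4-fold or with trends removed, each of which left 0 AP-1 genes higher, and a rule of 4-fold left 1 lower. Without FOSL1 the FOS sum was 0.490 of the control in place of 0.298, and without JUNB the JUN sum was 1.26 in place of 0.664.

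The 925 higher and 897 lower genes became 1257 and 685 with a common sum, 1158 and 684 when centred, and 1149 and 704 with a trimmed mean of ratios, so the higher share was 64.7%, 62.9% and 62.0% in place of 50.8%. The common sum moved the median of all genes from -0.06 to 0.08. Higher genes numbered 1630 with a pseudocount of 0.1 FPKM, 546 with a filter of 5 FPKM and 557 with 1 FPKM in both libraries. With a pseudocount of 5 FPKM, 219 were higher and 380 lower. A rule of 1.5-fold gave 2253 and 2505, and a rule of 4-fold 71 and 84.

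For other bZIP genes, 1 was higher in place of 0 with a pseudocount of 0.1 FPKM, under each of the 3 scalings, with a rule of 1.5-fold and with trends removed; 6 were lower with 1.5-fold and 0 with 4-fold. Of upstream genes, 2 were higher and 1 lower with 0.1 FPKM, 3 and 1 with 1.5-fold, and 0 higher with 4-fold. Of negative regulators, 1 was higher with 5 FPKM added, 2 with either stricter filter, 5 with 1.5-fold and 0 with 4-fold. None (0) was lower with 5 FPKM added, under each scaling, with 4-fold and with trends removed, and 2 with 1.5-fold. Of AP-1 targets, 2 were higher with a common sum and 3 with 1.5-fold; 0 were lower with 5 FPKM added, and 1 with either stricter filter or 4-fold. Of immediate-early genes, 2 were higher with 0.1 FPKM and with 1.5-fold; 2 were lower with 5 FPKM added and with trends removed, 3 under each scaling and 0 with 4-fold. The cause of these moves was not tested. The alternatives with trends removed and with other transcript lengths were chosen after seeing the data. Replicates could not be left out. No paired analysis was possible because each group had 1 library.

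Depth limits FOSB, BATF3 and JDP2 most: the interval of JDP2 ran from 0.455 to 2.02 with its shortest transcript and from 0.699 to 1.20 with its longest.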
